A study of Mus musculus with 20 samples.

Results

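Cabp4, Mpp4 and Lrit1 are 3 genes of the photoreceptor synapse, and their transcript levels were followed across the retinas of 5 mouse genotypes at postnatal day 2 (P2) and postnatal day 21 (P21). They were chosen by symbol from tables of selected transcripts, 566 at P2 and 1497 at P21, which together hold 1865 different transcripts. The P2 table holds Lrit1 (NM_146245) and Mpp4 (NM_145143). The P21 table holds Cabp4 (NM_144532) and Mpp4. Cabp4 at P2 and Lrit1 at P21 are not analysed here. Every listed transcript passed the authors' own thresholds in at least 1 comparison of its age, so that a listed gene differs between some genotypes by construction.

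The samples were whole retinas of C57BL/6J mice (the strain label of all groups). The genotypes were wild type; CrxRip/+, with 1 copy of the mutant Rip allele of Crx; CrxRip/Rip, with 2 copies; Crx-/-, without functional Crx; and Nrl-/-, without functional Nrl. Crx and Nrl are transcription factors of developing and mature photoreceptors, and Nrl is needed for the rod fate: photoreceptors of Nrl-/- retinas develop as cone-like cells. Each of the 10 groups had 2 samples, each made from 2 frozen retinas, 20 samples in all. The series title places these genotypes in a study of rod differentiation in Crx-associated congenital blindness. The values are FPKM, fragments scaled to the length of the transcript and to the number of mapped fragments in the library.

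Photoreceptors release glutamate continuously from ribbon synapses onto the dendrites of bipolar and horizontal cells, and light reduces that release. Release depends on voltage-gated calcium channels held near the ribbon. Cabp4 is a calcium-binding protein that associates with the channel subunit Cav1.4 and lets the channel open at the potentials at which photoreceptors work; mutations in the human gene impair transmission from photoreceptors. Mpp4 is a scaffold of the membrane-associated guanylate kinase family that gathers PSD-95 (encoded by Dlg4) and other proteins at the presynaptic plasma membrane. Lrit1 is a transmembrane protein with leucine-rich repeats found at photoreceptor synapses.

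The 250 bases before the transcription start are shown for Lrit1 and Mpp4, since the factors removed or altered in these mice bind short motifs near photoreceptor genes. The windows come from RefSeq (GRCm38.p6), and the set of windows used here covered 2 of the 3 genes. They lie at chr14:37054580-37054829 on the plus strand for Lrit1 and chr1:59161637-59161886 on the minus strand for Mpp4. Capitals mark the letters TAATCC, the core of the Crx motif, or its reverse complement GGATTA, and the letters TGCTGA, the core of the Nrl motif, or its reverse complement TCAGCA.
Lrit1: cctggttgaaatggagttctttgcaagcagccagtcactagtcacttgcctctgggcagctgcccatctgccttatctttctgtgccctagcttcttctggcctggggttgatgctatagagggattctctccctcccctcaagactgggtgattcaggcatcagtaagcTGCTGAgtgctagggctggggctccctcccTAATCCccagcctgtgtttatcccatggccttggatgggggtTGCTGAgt
Mpp4: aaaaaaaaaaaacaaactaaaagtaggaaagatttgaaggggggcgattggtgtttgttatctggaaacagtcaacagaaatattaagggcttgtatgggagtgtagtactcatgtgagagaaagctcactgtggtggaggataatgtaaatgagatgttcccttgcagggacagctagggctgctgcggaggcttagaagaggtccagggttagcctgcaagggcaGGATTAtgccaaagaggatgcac
The Lrit1 window held TAATCC from 50 to 45 bases before the start and TGCTGA from 80 to 75 and from 8 to 3 bases before it. The Mpp4 window held GGATTA from 23 to 18 bases before the start and neither form of the Nrl core. A second RefSeq start of Mpp4, with its window at chr1:59163390-59163639, held TGCTGA from 129 to 124 bases before it and neither form of the Crx core. Both strands were searched, and the motifs share no base with each other. Of the 32851 windows in that set, 6.25% held a Crx core, 16.1% an Nrl core and 0.962% both. These matches are a description of the letters and do not show that a factor is bound.

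At P21, Cabp4 was highest in wild type and lowest in CrxRip/Rip. Wild type samples gave 78.6 and 69.6 FPKM, Nrl-/- 40 and 34.7, CrxRip/+ 14.1 and 17.6, Crx-/- 13.1 and 11.7, and CrxRip/Rip 2.4 and 1.8 FPKM. No mutant sample overlapped wild type, and the CrxRip/Rip samples lay below every other sample. The mean was 74.1 ± 6.36 FPKM in wild type and 2.1 ± 0.424 FPKM in CrxRip/Rip (SD, n = 2 each), a 35.3-fold difference. Means of CrxRip/+, Crx-/- and Nrl-/- were 21.4%, 16.7% and 50.4% of wild type.

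All 4 mutant genotypes fell below wild type for Cabp4 in the limma fit of log2(FPKM + 1) over the 1497 genes of the P21 table, with Benjamini-Hochberg adjustment over that table. The log2 difference was -4.60 in CrxRip/Rip (SE 0.15, adjusted p = 4.64e-08), -2.49 in Crx-/- (adjusted p = 1.48e-06), -2.16 in CrxRip/+ (adjusted p = 4.25e-06) and -0.97 in Nrl-/- (adjusted p = 0.000412). Of all genes in the P21 table, 44.3% were called lower in CrxRip/Rip, 41.5% in Crx-/-, 35% in CrxRip/+ and 31.8% in Nrl-/-.

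Between mutants, Cabp4 was lower in CrxRip/Rip than in CrxRip/+ by a log2 difference of -2.44 (adjusted p = 2.08e-05 by limma), in a comparison that called 47% of the table. Only 7 of the 1497 genes had a more negative difference there. It was also lower in CrxRip/Rip than in Crx-/-, with a log2 difference of -2.12 (adjusted p = 1.13e-05 by limma; 53.4% of the table called). CrxRip/+ and Crx-/- did not differ by the test: the log2 difference was 0.32, with a 95% interval from -0.01 to 0.66 (adjusted p = 0.0966 by limma; 52.6% of the table called). That call rested on the samples kept, since it passed without CrxRip/+ replicate 1 (0.48, adjusted p = 0.0442 by limma) and the difference was 0.17 without CrxRip/+ replicate 2. The order of Cabp4 means was wild type, Nrl-/-, CrxRip/+, Crx-/- and CrxRip/Rip, and each step other than that from CrxRip/+ to Crx-/- passed the test.

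Cabp4 lies on chromosome 19 and its RefSeq range overlaps that of Gpr152, a receptor-like gene on the opposite strand. The libraries kept strand, but the sources used here do not say whether the counting did, so that reads of the shared stretch cannot be assigned to either gene. Gpr152 gave 26.3 and 24.4 FPKM in wild type, 9.6 and 7.8 in Nrl-/-, 3.6 and 3.4 in Crx-/-, 2.9 and 3.8 in CrxRip/+ and 0.7 and 0.4 in CrxRip/Rip at P21. It fell in all 4 mutants as well, by log2 differences from -4.09 in CrxRip/Rip to -1.45 in Nrl-/-. Its part in the Cabp4 values was not tested.

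Mpp4 was already present at P2 and was the only one of the 3 genes listed at both ages. At P2 wild type samples gave 6.1 and 6.4 FPKM, Nrl-/- 5 and 4.9, CrxRip/+ 2.6 and 3, Crx-/- 1.5 and 1.7, and CrxRip/Rip 0.6 and 0.7 FPKM. The 5 groups did not overlap. Mean levels in CrxRip/+, Crx-/- and CrxRip/Rip were 44.8%, 25.6% and 10.4% of the wild type mean of 6.25 ± 0.212 FPKM (SD, n = 2).

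Mpp4 fell at P2 in the mutants of Crx: the log2 difference from wild type was -2.14 in CrxRip/Rip (SE 0.09, adjusted p = 1.17e-06), -1.48 in Crx-/- (adjusted p = 2.73e-05) and -0.93 in CrxRip/+ (adjusted p = 0.000279), by limma over the 566 genes of the P2 table. These comparisons called 21.2%, 20.7% and 12.7% of the table lower. In Nrl-/- the difference was -0.28 (adjusted p = 0.014 by limma), where 64.7% of the table was called lower. The Nrl-/- difference turned to 0.63 when samples were rescaled by the median of ratios, a scaling that raised the median difference of all P2 genes by 0.72; it was -0.14 (adjusted p = 0.167) under the scaling in the authors' fold changes, and it missed the threshold without wild type replicate 2 (-0.25, adjusted p = 0.0722) and without Nrl-/- replicate 2 (-0.27, adjusted p = 0.0577). The median of ratios was computed over the listed transcripts alone, which were selected for differences between genotypes. The scaling in the authors' fold changes raised the median difference of all P2 genes by 0.1. In the authors' deposited table the log2 fold change of Mpp4 in Nrl-/- at P2 is -0.14 with an adjusted p of 0.519.

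Every pair of mutants differed in Mpp4 at P2. CrxRip/Rip was lower than CrxRip/+ by a log2 difference of -1.20 (adjusted p = 0.000409; 14.1% of the table called) and lower than Crx-/- by -0.66 (adjusted p = 0.000616; 41.3% called), both by limma. With a pseudocount of 0.1 in place of 1 these differences were -1.95 and -1.18, because the larger pseudocount compresses changes at levels near 1 FPKM. CrxRip/+ was higher than Crx-/- by 0.55 (adjusted p = 0.00303; 28.6% called) and lower than Nrl-/-, with a log2 difference of -0.65 (adjusted p = 0.000166; 85.7% called), which became -1.48 under the median of ratios. CrxRip/Rip and Crx-/- were also lower than Nrl-/-, with log2 differences of -1.85 (89.2% called) and -1.20 (78.8% called).

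At P21 Mpp4 was the most abundant of the members, with 173.6 and 160.5 FPKM in wild type, the 50th highest mean of that table. The other samples gave 139.2 and 144.7 FPKM in Nrl-/-, 139.2 and 112.1 in CrxRip/+, 51.2 and 48.8 in Crx-/-, and 17.6 and 27.9 in CrxRip/Rip. The Crx-/- and CrxRip/Rip samples lay below all others, while those of Nrl-/- and CrxRip/+ overlapped each other and lay below wild type. Means were 85% of wild type in Nrl-/-, 75.2% in CrxRip/+, 29.9% in Crx-/- and 13.6% in CrxRip/Rip.

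Mpp4 fell at P21 in CrxRip/Rip, with a log2 difference of -2.86 (SE 0.19, adjusted p = 2.67e-06), and in Crx-/-, with -1.72 (adjusted p = 5.84e-05), by limma. In CrxRip/+ the difference from wild type was -0.42, with a 95% interval from -0.86 to 0.03 (adjusted p = 0.0799 by limma), and in Nrl-/- it was -0.23, with an interval from -0.68 to 0.21 (adjusted p = 0.302 by limma). Neither passed the test. Of all genes at P21, 44.3% were called lower in CrxRip/Rip, 41.5% in Crx-/-, 35% in CrxRip/+ and 31.8% in Nrl-/-. The authors' deposited table gives a log2 fold change of -0.64 with an adjusted p of 1.39e-07 for CrxRip/+ and -0.36 with 0.0034 for Nrl-/-. Those fold changes lie lower than the ratios of the FPKM means by a nearly constant amount, -0.219 in CrxRip/+ and -0.11 in Nrl-/- as the median over genes with means of at least 5 FPKM. With that scaling applied to the samples, the CrxRip/+ difference was -0.63 (adjusted p = 0.0162 by limma), and with the median of ratios it was -0.59 (adjusted p = 0.0187). Without CrxRip/+ replicate 2, which had the lower level of its pair, it was -0.26 (adjusted p = 0.333). With only wild type and Nrl-/- in the fit, the Nrl-/- difference of -0.23 passed the threshold (adjusted p = 0.0328 by limma); under the median of ratios it was -0.46 (adjusted p = 0.0524).

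The CrxRip genotypes stood far apart for Mpp4 at P21: CrxRip/Rip was lower than CrxRip/+ by a log2 difference of -2.44 (adjusted p = 5.02e-05 by limma), and 8 of the 1497 genes had a more negative one. Crx-/- lay between them, below CrxRip/+ (CrxRip/+ minus Crx-/- 1.30, adjusted p = 0.000742 by limma) and above CrxRip/Rip (CrxRip/Rip minus Crx-/- -1.14, adjusted p = 0.00147 by limma). In that order, the comparisons among the Crx mutants called 47%, 52.6% and 53.4% of the table. The other comparisons with Nrl-/- at P21 were called for both genes: CrxRip/Rip minus Nrl-/- was -2.62 for Mpp4 and -3.63 for Cabp4 (66.8% of the table called), and Crx-/- minus Nrl-/- was -1.49 for Mpp4 and -1.52 for Cabp4 (65.1% called). For Mpp4, CrxRip/+ and Nrl-/- did not differ by the test, with a log2 difference of -0.18 and a 95% interval from -0.63 to 0.26 (adjusted p = 0.462 by limma; 48.8% of the table called). For Cabp4, CrxRip/+ was lower than Nrl-/- by a log2 difference of -1.19 (adjusted p = 0.000345 by limma). The order of Mpp4 means was that of Mpp4 at P2 and of Cabp4 at P21, wild type, Nrl-/-, CrxRip/+, Crx-/-, CrxRip/Rip, but the first 2 steps down did not pass the test at P21.

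Levels of Mpp4 at the 2 ages come from separate tables and are set side by side without a test. The P21 mean was 26.7 times the P2 mean in wild type, 44.9 times in CrxRip/+, 35 times in CrxRip/Rip, 31.2 times in Crx-/- and 28.7 times in Nrl-/-. Mpp4 thus had a higher level at P21 than at P2 in every genotype, including those in which it was lowest.

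Lrit1 at P2 gave 4.6 and 6.2 FPKM in wild type, 3.2 and 3.1 in CrxRip/+, 1.3 and 1.4 in Crx-/-, 1.1 and 1.1 in Nrl-/-, and 1.1 and 1 in CrxRip/Rip. All mutant samples lay below both wild type samples, and the Nrl-/- and CrxRip/Rip samples overlapped. Means were 58.3% of wild type in CrxRip/+ and between 19.4% and 25% in the other 3 mutants.

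All 4 mutants were called lower than wild type for Lrit1 by limma. The log2 difference was -1.63 in CrxRip/Rip (SE 0.12, adjusted p = 1.73e-05), -1.60 in Nrl-/- (adjusted p = 1.89e-05), -1.43 in Crx-/- (adjusted p = 0.000165) and -0.61 in CrxRip/+ (adjusted p = 0.00886). With only wild type and CrxRip/+ in the fit, the last of these had an adjusted p of 0.0812. The Nrl-/- difference was -0.90 (adjusted p = 0.000155 by limma) under the median of ratios. Of all genes at P2, 21.2% were called lower in CrxRip/Rip, 64.7% in Nrl-/-, 20.7% in Crx-/- and 12.7% in CrxRip/+. The median log2 difference of all genes in Nrl-/- was -0.76. Wild type carried most of the spread of Lrit1, with an SD of 1.13 FPKM against 0.0707 FPKM or less in the mutants.

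Lrit1 was higher in CrxRip/+ than in Crx-/- by a log2 difference of 0.82 (adjusted p = 0.00208) and than in CrxRip/Rip (CrxRip/Rip minus CrxRip/+ -1.02, adjusted p = 0.00106), both by limma. In that order, the comparisons called 28.6% and 14.1% of the table. The 3 lowest genotypes did not differ from each other by the test. CrxRip/Rip minus Crx-/- was -0.20, with a 95% interval from -0.47 to 0.08, CrxRip/Rip minus Nrl-/- was -0.04, from -0.31 to 0.24, and Crx-/- minus Nrl-/- was 0.16, from -0.11 to 0.43. Of all genes at P2, these comparisons called 41.3%, 89.2% and 78.8%. Under the median of ratios both comparisons with Nrl-/- passed the test, with Nrl-/- the higher group: -0.57 for CrxRip/Rip (adjusted p = 0.00249) and -0.35 for Crx-/- (adjusted p = 0.0349). On chromosome 14 the RefSeq range of Lrit1 overlaps those of Rgr and Lrit2. Reads of the shared stretches cannot be assigned to any 1 of these genes from the values used here.

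**Figure D1:**
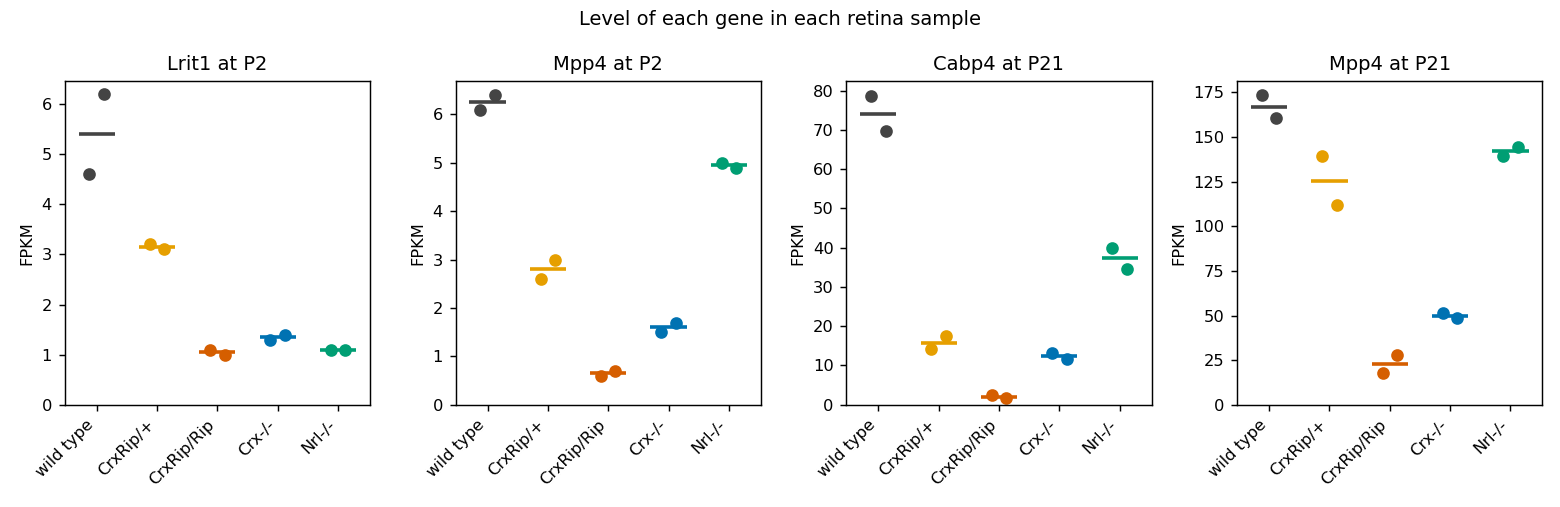
FPKM of Lrit1 and Mpp4 at P2 and of Cabp4 and Mpp4 at P21 by genotype; points are samples and lines are means of 2. CrxRip/Rip has the lowest mean of each gene, from 1.05 FPKM for Lrit1 to 22.75 FPKM for Mpp4 at P21, while Nrl-/- is low for Lrit1 (1.1 FPKM) and at 79.2% and 85% of wild type for Mpp4.

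Across both ages, the 3 genes gave 16 comparisons with wild type, of which 14 were called lower and 2 (Mpp4 at P21 in CrxRip/+ and Nrl-/-) were not called. Of all genes, 12.7% to 64.7% were called lower in those comparisons at P2 and 31.8% to 44.3% at P21. Over all 40 pairwise comparisons of genotypes, 33 were called, where between mutants 14.1% to 89.2% of all genes were called at P2 and 47% to 66.8% at P21. An exact permutation test of 2 samples against 2 cannot give a p below 0.33, so the calls rest on the spread pooled over the 10 samples and on the genes of each table. The p-values measure the spread between the samples, each of which already averages 2 retinas. In whole retina, fewer cells of a type and less RNA per cell cannot be told apart.

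**Figure D2:**
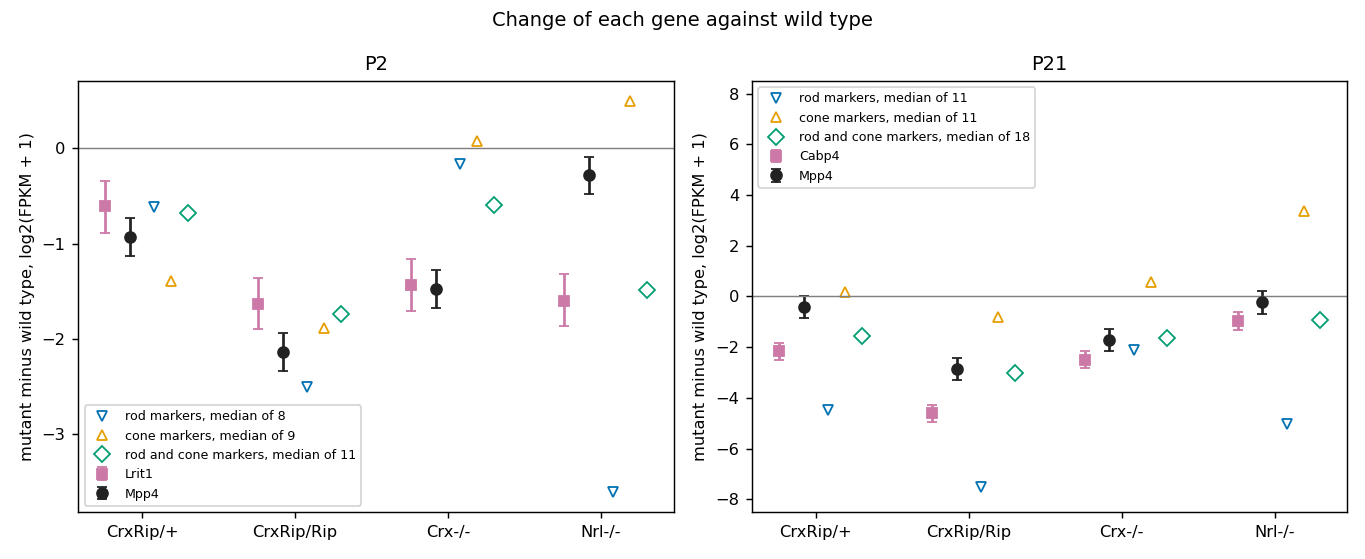
Difference of each mutant from wild type in log2(FPKM + 1). Filled points are limma estimates for the members from 2 samples a group, with 95% intervals. Open markers are the medians of the rod, cone, and rod and cone gene lists and have no interval. The interval reaches 0 for Mpp4 at P21 in CrxRip/+ (-0.86 to 0.03) and Nrl-/- (-0.68 to 0.21), and Cabp4 in CrxRip/Rip has the most negative estimate, -4.60.

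The ratios of the members to each other took different values in the genotypes. Within samples, Lrit1 over Mpp4 at P2 was 0.754 and 0.969 in wild type, 0.867 and 0.824 in Crx-/-, 1.23 and 1.03 in CrxRip/+, 1.83 and 1.43 in CrxRip/Rip, and 0.22 and 0.224 in Nrl-/-. The Nrl-/- ratios lay below all others and the CrxRip/Rip ratios above all others. The CrxRip/Rip ratios rest on low values given to 1 decimal, 1.1 and 1 FPKM for Lrit1 and 0.6 and 0.7 FPKM for Mpp4. Rounding therefore bears most on them. Cabp4 over Mpp4 at P21 was 0.453 and 0.434 in wild type, 0.287 and 0.24 in Nrl-/-, 0.256 and 0.24 in Crx-/-, 0.101 and 0.157 in CrxRip/+, and 0.136 and 0.0645 in CrxRip/Rip. Both wild type ratios lay above those of every mutant sample, and the CrxRip/+ and CrxRip/Rip ratios, which overlapped each other, lay below the rest. A ratio within a sample does not depend on how the samples are scaled; these ratios were not tested and are given as a description. Over the 10 samples of an age, the Pearson correlation of log2(FPKM + 1) was 0.607 between Lrit1 and Mpp4 at P2 and 0.913 between Cabp4 and Mpp4 at P21, where the points share libraries and genotypes.

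**Figure D3:**
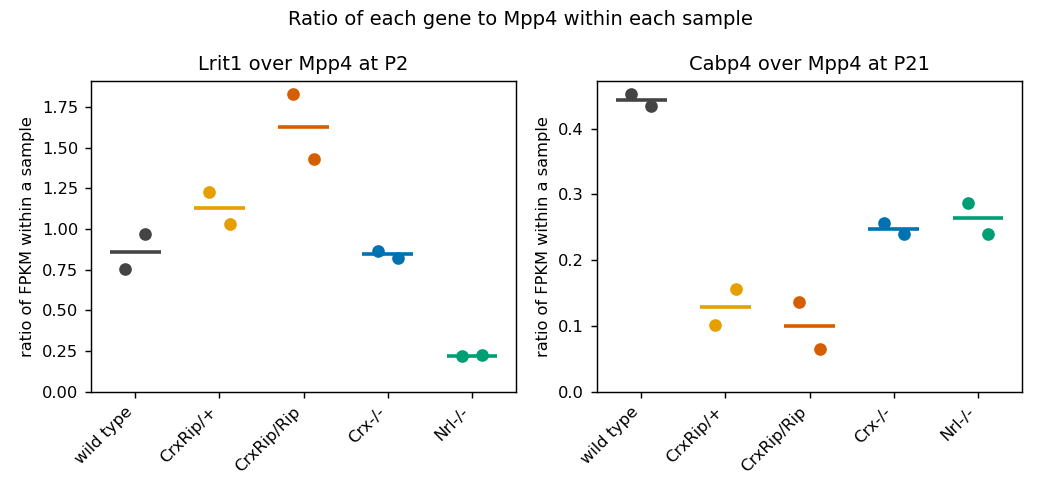
Ratio of the FPKM of Lrit1 to that of Mpp4 at P2 and of Cabp4 to Mpp4 at P21 in each sample; points are samples and lines are means of 2. Lrit1 over Mpp4 is lowest in Nrl-/- (mean 0.222) and highest in CrxRip/Rip (mean 1.63), and Cabp4 over Mpp4 is highest in wild type (mean 0.443).

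A list of 66 other gene symbols for the photoreceptor terminal, without the 3 members, had 8 genes among the listed transcripts of P2 and 22 among those of P21. Cabp5, present at both ages, was also on a list of bipolar cell markers, so that the counts are not those of photoreceptors alone. At P21, 18 of 22 were called lower in CrxRip/Rip and 2 higher, 15 lower and 5 higher in Crx-/-, 11 lower and 4 higher in CrxRip/+, and 7 lower and 6 higher in Nrl-/-. The median log2 differences of the 22 were -0.86, -0.67, -0.30 and -0.03, beside -0.14, -0.04, 0.13 and 0.17 for all genes of the table. Of all genes, 44.3%, 41.5%, 35% and 31.8% were called lower in these comparisons and 36.3%, 39.8%, 39.5% and 40.4% higher, so that the Nrl-/- share of the list called lower was that of the table. Under the median of ratios 12 were lower in Nrl-/-, with the authors' scaling 1 was higher in CrxRip/Rip, and without Crx-/- replicate 1 there were 3 higher in Crx-/-. The most negative difference of the 22 was that of Ppef2, a photoreceptor phosphatase, with means of 61.65 FPKM in wild type and 5.3 FPKM in CrxRip/Rip (log2 difference -3.31). It was -1.85 in CrxRip/+ and -0.99 in Crx-/-, and in Nrl-/- it was -0.26 (adjusted p = 0.0754 by limma), or -0.49 under the median of ratios and -0.37 with the authors' scaling, both past the threshold. Cabp4 in CrxRip/Rip had a more negative estimate than any of the 22, and Mpp4 a more negative one than all but Ppef2.

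**Figure D4:**
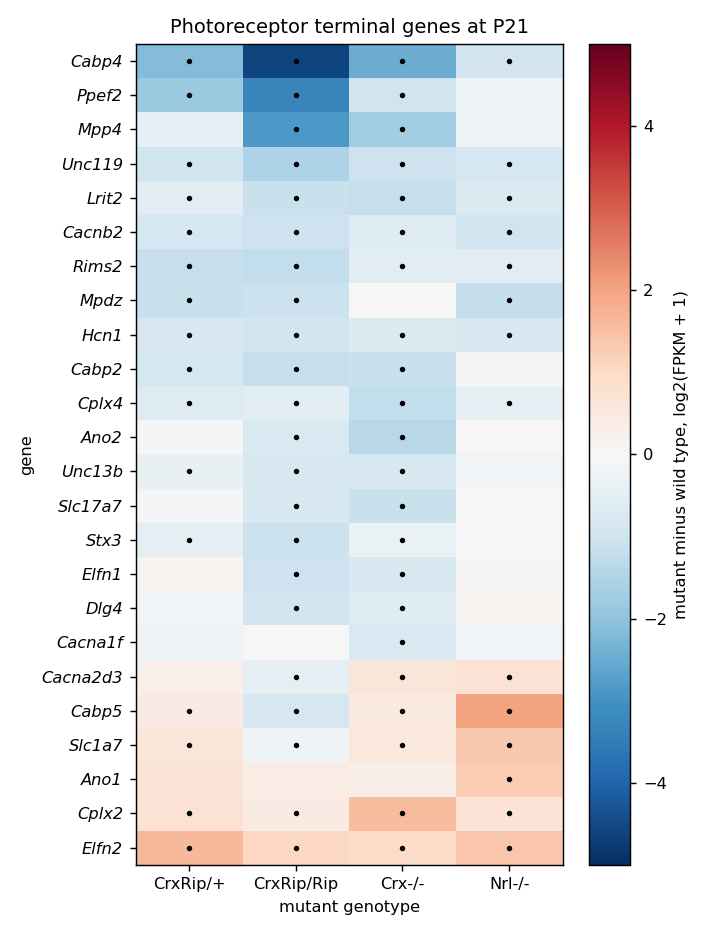
Difference from wild type in log2(FPKM + 1) at P21 for Cabp4, Mpp4 and the 22 other photoreceptor terminal genes in the table (rows) in each mutant genotype (columns); blue is lower, red is higher, and a dot marks an adjusted p under 0.05 by limma. CrxRip/Rip is blue with a dot in both members and in 18 of the 22 others, and Cabp4 in CrxRip/Rip is the darkest cell at -4.60.

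Several genes of the terminal list, not all of them confined to photoreceptors, took other courses at P21. Elfn2, which encodes a leucine-rich repeat membrane protein, rose in all 4 mutants, from 8.7 FPKM in wild type to 28.95 in CrxRip/+, 24.3 in Nrl-/-, 18.9 in CrxRip/Rip and 17.6 in Crx-/- (log2 differences 1.62, 1.39, 1.04 and 0.94). Cabp5, a relative of Cabp4 that bipolar cells express strongly, had a mean of 39.05 FPKM in wild type and rose in Nrl-/- (157.05 FPKM, log2 difference 2.00) and fell in CrxRip/Rip (-0.83). Its differences of 0.50 in Crx-/- and 0.42 in CrxRip/+ (adjusted p = 0.022 and 0.0499 by limma) passed too, but missed the threshold with the authors' scaling (0.28 and 0.20) and without wild type replicate 1 (0.27 and 0.18); the Crx-/- difference also missed it without either Crx-/- replicate 1 or 2 (0.44 and 0.57), and the CrxRip/+ difference without CrxRip/+ replicate 1 (0.28), under the median of ratios (0.24) and with a replicate block (adjusted p = 0.065). Slc1a7, a glutamate transporter of photoreceptor and bipolar terminals, rose in Nrl-/- (1.34), CrxRip/+ (0.59, or 0.38 with the authors' scaling) and Crx-/- (0.52, or 0.29). In CrxRip/Rip Slc1a7 was called lower (-0.23, adjusted p = 0.0332 by limma), but not under the median of ratios (-0.11) or without wild type replicate 1, wild type replicate 2 or CrxRip/Rip replicate 1 (-0.27 to -0.18). Cabp4 and Cabp5 thus had opposite signs in Nrl-/-, where Cabp4 was 50.4% of wild type. Dlg4, which encodes the Mpp4 partner PSD-95, went from 145.65 FPKM in wild type to 77.7 in CrxRip/Rip (log2 difference -0.90, adjusted p = 1.77e-05 by limma) and 96.4 in Crx-/- (-0.59), and in CrxRip/+ it was 131.6 and in Nrl-/- 155.9 FPKM, neither past the threshold; the CrxRip/+ difference of -0.15 passed under the median of ratios (-0.32) and the authors' scaling (-0.36). Cacna1f, which encodes the Cav1.4 subunit to which Cabp4 binds, had means of 52.2 FPKM in wild type and 51.5 in CrxRip/Rip (log2 difference -0.03, adjusted p = 0.837 by limma) and fell in Crx-/- to 30.25 FPKM (-0.77, adjusted p = 0.000431). In CrxRip/+ and Nrl-/- Cacna1f was at -0.21 and -0.13, not called, and was called under the median of ratios (-0.39 and -0.35). Cacna1f was named after its values were seen.

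At P2 all 8 terminal genes in the table were called lower in CrxRip/Rip, 4 in Crx-/-, 4 in CrxRip/+ and 3 in Nrl-/-, where 1 was higher (as were 18.9% of all genes). Their median log2 differences were -0.90, -0.49, -0.38 and -0.13, beside -0.06, -0.14, -0.02 and -0.76 for all genes, of which 21.2%, 20.7%, 12.7% and 64.7% were called lower. The count for CrxRip/+ was 2 under the median of ratios or without wild type replicate 1, and 1 without wild type replicate 2 or CrxRip/+ replicate 1; the higher count for Nrl-/- was 6 under the median of ratios, 3 with the authors' scaling and 2 with a replicate block. Cabp5 had a mean of 3.35 FPKM in wild type, 0.4 in CrxRip/+ and 0.2 in CrxRip/Rip (log2 differences -1.63 and -1.86, or -2.78 and -3.52 with a pseudocount of 0.1), with 1.25 in Crx-/- (-0.95). In Nrl-/- Cabp5 was 2.65 FPKM (-0.25, adjusted p = 0.0551 by limma), and that difference turned to 0.57 under the median of ratios and passed without wild type replicate 2 (-0.33). Slc17a7, the vesicular glutamate transporter that fills photoreceptor vesicles, had a mean of 7.75 FPKM in wild type and fell in Nrl-/- (2 FPKM, log2 difference -1.55, or -0.74 under the median of ratios), CrxRip/Rip (-1.24) and Crx-/- (-0.87). In CrxRip/+ it was also called (-0.44, adjusted p = 0.00886 by limma), but not without wild type replicate 2 (-0.42) or CrxRip/+ replicate 1 (-0.43). Ppef2 fell in CrxRip/Rip (-1.63) from 15.35 FPKM in wild type. Its CrxRip/+ difference of -0.62 (adjusted p = 0.0218 by limma) missed the threshold under the median of ratios (-0.55) and without any 1 of the 4 samples (-0.68 to -0.56). It was 16.3 FPKM in Crx-/- and 15.4 in Nrl-/-, neither past the threshold, but higher in Nrl-/- under the median of ratios (1.00, adjusted p = 0.00061 by limma).

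On the receiving side, a list of 15 genes of bipolar cell dendrites had 2 genes in each table. At P21 Rgs9bp, an anchor of the RGS9 complex that is itself abundant in photoreceptors, went from 144.2 FPKM in wild type to 55.75 in Nrl-/-, 31.9 in CrxRip/+, 22.25 in Crx-/- and 16.3 in CrxRip/Rip, with log2 differences from -1.36 to -3.08, all called. Gnb5, a partner of RGS proteins, went from 229.1 FPKM to 110.95 in CrxRip/Rip (-1.04), 128.1 in Crx-/- (-0.83) and 130 in CrxRip/+ (-0.81), and in Nrl-/- it was 194.45 FPKM (-0.24, adjusted p = 0.105 by limma), or -0.47 under the median of ratios and -0.35 with the authors' scaling, both past the threshold. At P2 Pcp2, a bipolar cell protein, rose in Nrl-/- (1.65 to 5.9 FPKM, log2 difference 1.38, or 2.24 under the median of ratios). Its Crx-/- difference of 0.41 (adjusted p = 0.0433 by limma) missed the threshold with a replicate block (adjusted p = 0.0523) and without wild type replicate 1 (0.27) or either Crx-/- replicate 1 or 2 (0.49 and 0.32). Trpm1, the channel opened in ON bipolar cells by light, was called in no mutant at P2, and its CrxRip/Rip samples stood apart at 0.4 and 3.9 FPKM; the CrxRip/Rip difference was 1.45 without replicate 1 (adjusted p = 0.000227 by limma) and -0.36 without replicate 2.

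The defining genes of rods and cones moved with the genotypes. The summed FPKM of 11 rod genes at P21 was 16602.4 to 17630.4 in wild type, 1125.6 to 1278.7 in Crx-/-, 1513.6 to 1525.7 in Nrl-/-, 690.7 to 786.3 in CrxRip/+ and 336.2 to 337 in CrxRip/Rip, and all 11 were called lower in each mutant. That of 11 cone genes was 739.7 to 800.3 in wild type, 6801.5 to 7028.9 in Nrl-/-, 1083.6 to 1167.4 in CrxRip/+, 878 to 1000.1 in Crx-/- and 475.2 to 559 in CrxRip/Rip, and all 11 were called higher in Nrl-/-. In the other mutants the cone genes went both ways: 5 were higher and 4 lower in CrxRip/+, 6 and 4 in Crx-/-, and 4 and 6 in CrxRip/Rip (2 higher without CrxRip/Rip replicate 1). Of all genes at P21, 39.5% were called higher in CrxRip/+, 39.8% in Crx-/-, 36.3% in CrxRip/Rip and 40.4% in Nrl-/-. Called lower were 35%, 41.5%, 44.3% and 31.8% in that order, so that the whole table also went both ways. In CrxRip/+ the cone opsins Opn1sw and Opn1mw had log2 differences of -6.23 and -5.90, and Gngt2, a cone transducin subunit, 3.16. In CrxRip/+ at P21 the rod genes had a median log2 difference of -4.48 where Cabp4 had -2.16 and Mpp4 -0.42. In Nrl-/- it was -5.04 where Cabp4 had -0.97 and Mpp4 -0.23. For 18 genes of both rods and cones the medians lay between the members, at -1.56 in CrxRip/+ and -0.91 in Nrl-/-. In Crx-/- and CrxRip/Rip they were -1.62 and -3, beside -2.49 and -4.60 for Cabp4 and -1.72 and -2.86 for Mpp4. At P2 the 11 of them in the table had a median of -1.49 in Nrl-/-, where Lrit1 had -1.60 and Mpp4 -0.28. At P2 the 8 rod genes in the table summed to 301.2 and 368.1 FPKM in wild type and 27.7 and 28.8 in Nrl-/-, where Mpp4 was at 79.2% and Lrit1 at 20.4% of wild type. The 9 cone genes summed to 388.2 and 431.9 FPKM in wild type, 524.2 and 522.7 in Nrl-/-, 369.2 and 438.6 in Crx-/-, 202.2 and 236.8 in CrxRip/+ and 83.9 and 100.6 in CrxRip/Rip; 8 of the 9 were called lower in CrxRip/+, all 9 in CrxRip/Rip, 3 in Crx-/- (1 higher) and none in Nrl-/- (6 higher). Genes of the pigment epithelium, a tissue that adheres to the retina, also differed at P21: 7 of 9 were in the table and summed to 10.8 and 23.1 FPKM in wild type and 41.7 to 88.2 in the mutants. The part of these cell type markers in the results on Cabp4, Mpp4 and Lrit1 was not tested.

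By the likeness of pattern over the 10 samples of an age, the 3 most similar genes of its table are named for each member. They were the highest of 565 other genes at P2 or 1496 at P21, all selected for differences between genotypes. High values of r therefore come with the choice. The measure was Pearson's r of log2(FPKM + 1), over points that share libraries and genotypes. For Lrit1 at P2 the most similar genes were Rdh12, a photoreceptor retinol dehydrogenase (r = 0.9722), Zfp365 (0.9606) and Rp1l1, a protein of the photoreceptor axoneme (0.9549). For Mpp4 at P2 they were Llgl2 (0.9532), Ano2, a chloride channel of photoreceptor terminals known to depend on Mpp4 for its localisation (0.9444), and Rcvrn, the calcium sensor recoverin (0.9386). For Cabp4 at P21 they were Paqr4 (0.9952), Mfap3 (0.9872) and Gucy2e, a photoreceptor guanylate cyclase (0.9858); with a pseudocount of 0.1, Gpr152 entered (0.9901) and Gucy2e left. For Mpp4 at P21 they were Abcg4, listed as WHITE (0.9754), Dlg4 (0.9745) and BC096441 (0.9714).

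**Figure D5:**
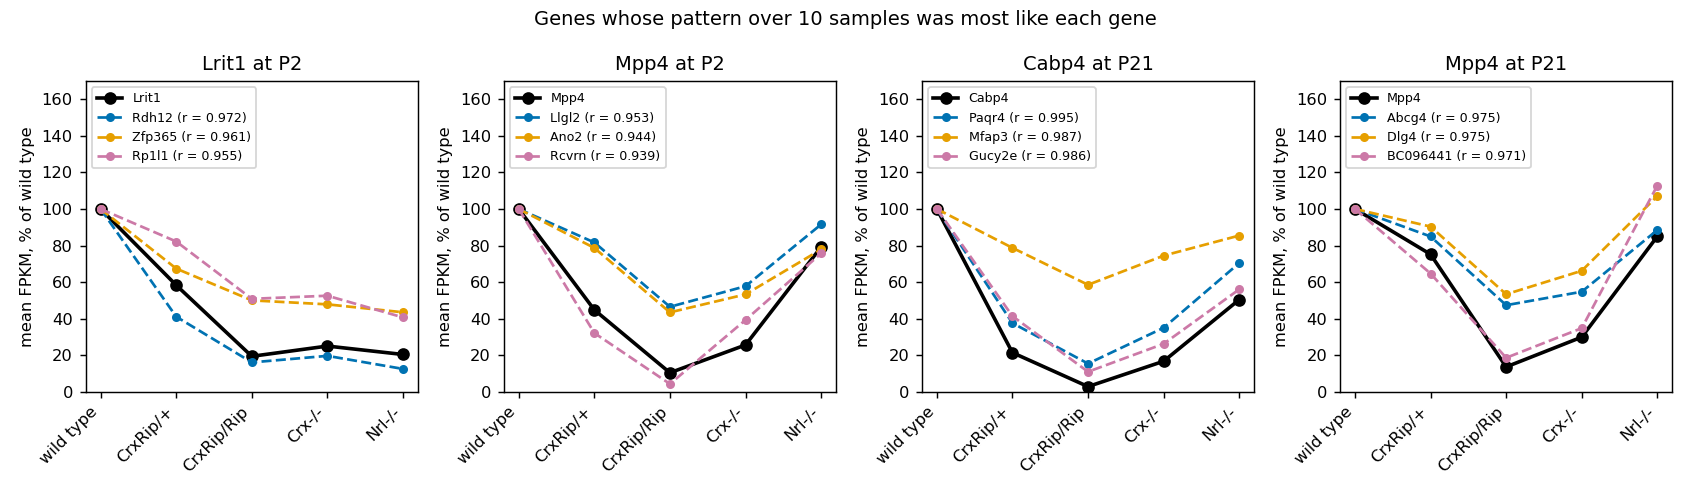
Mean FPKM as a percentage of wild type in each genotype for each member (black) and the 3 genes of its table with the highest Pearson r over 10 samples (dashed). The genes were picked for a high r, so that alike shapes come with the choice, and the depths differ. In CrxRip/Rip at P21 Cabp4 is at 2.83% of wild type and its 3 similar genes at 10.9% to 58.5%. Among the members, Mpp4 is at 13.6% in CrxRip/Rip at P21, and at P2 Lrit1 is at 19.4% and Mpp4 at 10.4%.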

How the data were processed

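Whole retina RNA was sequenced from directional TruSeq libraries, per the labels' protocols. The authors deposited, for each age, a table of selected transcripts with FPKM per sample and, per the file headers, log2 fold changes, adjusted p-values (DESeq is named in the submitters' processing notes) and mean FPKM. The sources used here do not name the aligner, the counter or the genome build. Sequencing depth is unknown, so no counting interval is given. Summed FPKM was 4168.3 to 5777.3 at P2 and 21569.4 to 55335.3 at P21. Samples were grouped by their genotype and age labels. Nothing in the labels says that same-numbered samples share an animal.

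For each age, log2(FPKM + 1) of all 10 samples was fitted with limma 3.58.1 (R 4.3.3), 1 term per genotype and a variance trend on the mean, without a filter, and the 10 pairwise comparisons were adjusted by the Benjamini-Hochberg method over the table. Genes with an adjusted p under 0.05 are called lower or higher. Fold differences on this scale are understated for genes near 1 FPKM. In data simulated for CrxRip/+ against wild type, 89% of 100 genes changed by a log2 value of 1 were called at P2 (566 genes) and 93% at P21 (1497 genes), with 6 unchanged genes called in each. The changed genes were drawn only from those with higher levels in wild type, and each gene had the same normal spread in every genotype. These rates therefore do not cover genes of low level or of unequal spread.

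The 3 genes and all lists were chosen with earlier results of these data known. Besides the members, the text names from the terminal and dendrite lists the 3 genes with the largest change against wild type per age and those called in all 4 mutants in opposite directions, and the 3 genes of most similar pattern. Gpr152, Dlg4 and Cacna1f (as partners or neighbours) and Lrit2 were added after their values were seen. Older symbols were updated through RefSeq accessions (34 at P2, 93 at P21). Alternatives were other pseudocounts (0.1 and 0.5), a filter at 2 FPKM, no variance trend, only the 2 genotypes compared, median-of-ratios scaling, a replicate block and leaving out each sample. The median of ratios used 555 listed transcripts at P2 and 1463 at P21. It takes most of them as unchanged, although they were selected for differences between genotypes, so that its reversals do not settle a direction. A scaling taken from the authors' fold changes, and the alternatives for list counts and for other named genes, were added after seeing the data.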

Additional observations from a re-analysis of the deposited data

How the results depend on the processing

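The members' 40 comparisons kept direction and call with pseudocounts of 0.1 and 0.5, the filter, no variance trend and the replicate block. Leaving out samples kept 157 of 160 calls. With only the 2 genotypes compared in the fit, Lrit1 in CrxRip/+ at P2 no longer passed (-0.61, adjusted p = 0.0812 by limma) and Mpp4 in Nrl-/- at P21 passed (-0.23). Under the median of ratios Mpp4 in Nrl-/- at P2 reversed (0.63), as did Lrit1 between Crx-/- and Nrl-/- (-0.35), while Lrit1 between CrxRip/Rip and Nrl-/- (-0.57) and Mpp4 in CrxRip/+ at P21 (-0.59) came to pass. With the authors' scaling, added after seeing the data, Mpp4 in Nrl-/- at P2 no longer passed (-0.14) and Mpp4 in CrxRip/+ at P21 did (-0.63). Without 1 sample at a time, Mpp4 in Nrl-/- at P2 ranged from -0.31 to -0.25 and Cabp4 between CrxRip/+ and Crx-/- from 0.17 to 0.48. The cause was not tested. Among the other genes named, Cabp5 in Nrl-/- at P2 reversed under the median of ratios (0.57), as did differences that were not called: at P2 Ppef2 in Nrl-/- (1.00, and 0.16 with the authors' scaling; -0.17 to 0.16 without 1 sample), Trpm1 in Nrl-/- (0.47, and 0.04; -0.12 to 0.04) and, without 1 sample, Trpm1 in CrxRip/Rip (-0.36 to 1.45) and Pcp2 in CrxRip/+ (-0.05 to 0.22), and at P21 Dlg4 in Nrl-/- (-0.13, and -0.01) and Cacna1f in CrxRip/Rip (0.08; -0.2 to 0.14 without 1 sample). The order of means held in all 12 settings, the reported one included, for both genes at P21, in 11 for Mpp4 at P2 and in 10 for Lrit1.

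Same-numbered samples deviated together in some pairs of genotypes only: correlations of replicate differences ran from -0.24 to 0.33 at P2 and from -0.3 to 0.24 at P21. At each age 4 of 10 pairs of genotypes were over 0.1. At P2 the summed FPKM of the rod genes was higher in replicate 2 than in replicate 1 in every genotype. The cone genes did so in every genotype but Nrl-/- (524.2 and 522.7). The labels name no pairing and the reported fit has none. A shift shared by same-numbered samples was addressed only by the replicate block. With the replicate block Cabp4 in CrxRip/Rip remained at -4.60 (adjusted p = 4.57e-07 by limma).

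Over whole tables, counts of called genes moved by more than 1.5 times as follows. At P2, CrxRip/+ against wild type went from 93 to 55 without wild type replicate 2. Crx-/- against wild type went from 169 to between 72 and 92, and CrxRip/+ against Crx-/- from 162 to between 78 and 93, without any 1 sample. CrxRip/Rip against CrxRip/+ went from 80 to 43 with 2 genotypes and to 51 without CrxRip/+ replicate 2, and CrxRip/Rip against Crx-/- from 234 to 133 and to 136 without Crx-/- replicate 2. The median of ratios took Nrl-/- against wild type from 473 to 284, CrxRip/+ against Nrl-/- from 485 to 308 and Crx-/- against Nrl-/- from 446 to 261. At P21, CrxRip/Rip against CrxRip/+ went from 703 to 279 with 2 genotypes. The same scaling moved the split of higher and lower calls in Nrl-/- against wild type at P2 from 107 and 366 to 188 and 96, in Crx-/- from 52 and 117 to 86 and 57, and in CrxRip/Rip against CrxRip/+ at P21 from 165 and 538 to 304 and 269. It also moved those of CrxRip/+ against Crx-/- (91 and 71 to 41 and 84) and of Nrl-/- compared with CrxRip/+ (349 and 136 to 117 and 191), CrxRip/Rip (345 and 160 to 155 and 199) and Crx-/- (339 and 107 to 76 and 185) at P2, and of CrxRip/Rip compared with Crx-/- (291 and 508 to 406 and 391) and Nrl-/- (317 and 683 to 489 and 478) at P21.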

Other observations

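Lrit2, the leucine-rich repeat gene next to Lrit1 on chromosome 14, was listed at both ages. At P2 the wild type mean was 6.25 FPKM, the Nrl-/- mean 2.15 FPKM and the Crx-/- mean 2.95 FPKM, with CrxRip/Rip at 3.3 and CrxRip/+ at 4.55 FPKM. All 4 mutants were called lower, with log2 differences of -1.20, -0.88, -0.75 and -0.39 in that order. The Nrl-/- difference was -0.39 under the median of ratios, and the CrxRip/+ one missed the threshold there (-0.32) and without wild type replicate 1, wild type replicate 2 or CrxRip/+ replicate 1 (-0.40 to -0.30). At P21 it had 80.45 FPKM in wild type and 35.05 to 54.35 FPKM in the mutants, again called lower in all 4, with log2 differences from -0.56 in CrxRip/+ to -1.17 in Crx-/-; the CrxRip/+ difference missed the threshold without wild type replicate 1 (-0.48) or CrxRip/+ replicate 2 (-0.46). Of all genes at P2, 64.7% were called lower in Nrl-/-, 20.7% in Crx-/-, 21.2% in CrxRip/Rip and 12.7% in CrxRip/+, and at P21 31.8% to 44.3%. The median log2 difference of all genes in Nrl-/- at P2 was -0.76. Lrit1 and Lrit2 were both lower than wild type in Nrl-/- at P2, as was most of the table, and Mpp4 was at 79.2% of wild type there. Lrit2 was chosen after its values were seen, and the RefSeq ranges of Lrit1 and Lrit2 overlap.

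Slc17a7 had a different standing in Nrl-/- at the 2 ages. Its mean there was 2 FPKM against 7.75 in wild type at P2 (log2 difference -1.55, or -0.74 under the median of ratios), and 356.05 FPKM against 364.55 at P21 (-0.03, not called, or -0.26 and called under the median of ratios). At P21 it fell in Crx-/- (168.55 FPKM, -1.11) and CrxRip/Rip (209.3 FPKM, -0.81), as did Mpp4, and in CrxRip/+ it was 343.05 FPKM (-0.09, not called, or -0.27 under the median of ratios and -0.31 with the authors' scaling, both called). The P21 values of Slc17a7 were chosen after they were seen.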
